A study of Homo sapiens with 18 samples.

Results

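The genes described here are 45 interferon-stimulated genes, a set of cellular transcripts that rise when a cell senses interferon, read in a mammary epithelial model of early transformation. They were taken by name and not by a threshold on their values. Of the 45 genes, 44 had a probe set named to them in the array annotation, out of 19775 genes with one, and 37 were bright enough to test, out of 12171 tested in all; STAT2 was not analysed here because no probe set carried its name. For each gene the probe set with the highest mean over the arrays was read.

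The data were 18 Affymetrix HG-U133 Plus 2.0 arrays, 2 for each of 9 groups made of 3 lines and 3 populations. M1B26 was grown from MCF10A cells that had been sorted for the BMP receptor BMPR1B, exposed to BMP2 and IL6, and then expanded from soft-agar clones, so that the line descends from few selected cells. MC26 was MCF10A after long exposure to BMP2 and IL6 with no such sort. MCF10A-CT, the control line, was kept in standard medium; it is an immortalised, non-tumorigenic human mammary epithelial line. IL6 was given at 10 ng/ml, while the labels state 5 ng/ml in one place and 10 ng/ml in another for BMP2, and both treated lines stayed in these factors. Each line was profiled as CD10+ cells, as CD10- cells and unsorted; the labels have cells either frozen or stained for CD10 and sorted by flow cytometry, so that sorting and handling cannot be told apart. The array labels call the 2 arrays of a group biological replicates.

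Type I and type III interferons bind receptors on almost every epithelial cell and, through the kinases JAK1 and TYK2, activate a complex with STAT2 and IRF9 that binds the interferon-stimulated response element in gene promoters. Interferon gamma acts mainly through another element, the gamma-activated site. The genes that follow encode proteins that sense foreign nucleic acid, block translation of viral RNA, attach the ubiquitin-like protein ISG15 to other proteins, or stop virus entry and release, and many are also read at a lower, interferon-independent level in resting cells.

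RefSeq promoters (assembly GRCh38.p14, 250 bases before to 50 after the start of transcription) were at hand for 36 of the 45 genes. The response element was searched as GAAANNGAAA on both strands, and 24 of the 36 promoters held it (66.7%), against 3.57% of 35116 promoters of the same length. The gamma-activated site was searched as TTCNNNGAA, which reads alike on both strands, and was found in 11 of the 36 (30.6%), against 7.66% of all promoters. A match is a description of the letters and not a binding site. Stretches of 80 bases are shown for the 4 genes with a response element that were higher in both treated lines (IFIT1, IFIT3, IFI44 and SAMD9) and for HERC5 and LGALS3BP, which moved in opposite directions in the treated lines. Each is written 5′ to 3′ on the gene's strand, with the bases of the response element in capitals, read as the reverse complement (blocks of TTTC) where it lies on the other strand.
IFIT1, chr10:89392460-89392539, plus strand: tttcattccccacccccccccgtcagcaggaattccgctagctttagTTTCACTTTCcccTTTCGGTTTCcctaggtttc
IFIT3, chr10:89332418-89332497, plus strand: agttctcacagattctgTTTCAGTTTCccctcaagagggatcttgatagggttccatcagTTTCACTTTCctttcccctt
IFI44, chr1:78649711-78649790, plus strand: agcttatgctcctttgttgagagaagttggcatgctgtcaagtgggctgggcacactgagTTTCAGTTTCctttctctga
SAMD9, chr7:93118096-93118175, minus strand: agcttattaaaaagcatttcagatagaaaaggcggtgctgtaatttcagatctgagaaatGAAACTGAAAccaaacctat
HERC5, chr4:88456985-88457064, plus strand: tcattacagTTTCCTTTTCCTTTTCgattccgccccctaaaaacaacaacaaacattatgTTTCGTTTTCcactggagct
LGALS3BP, chr17:78979962-78980041, minus strand: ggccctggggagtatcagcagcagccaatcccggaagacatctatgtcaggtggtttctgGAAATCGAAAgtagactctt
In HERC5 a run of TTTC blocks makes overlapping matches beside a separate one, IFIT1 and IFIT3 each have a pair, and IFI44, SAMD9 and LGALS3BP have 1 match each in the stretch shown. PARP9 and DTX3L, whose proteins work as a pair, start 38 bases apart on opposite strands of chromosome 3, and the only match in either promoter is the same 10 bases, at chr3:122564332-122564341. No match was found in the windows of HERC6, IFI35, SP110, IFI16 or OAS1. Of the 21 tested genes with a match, 4 were higher in both treated lines, and of the 9 tested genes without one, HERC6, IFI16, IFI35 and SP110 were. The share of all genes higher in both lines is not given, so these counts are not read against all genes. Shares of single lines do not stand in for it, since the lines share their control arrays. Line by line, 27.0% of all tested genes were higher in M1B26 and 19.7% in MC26. Without 2 sorted MCF10A-CT arrays described below, IFI44, SAMD9 and IFI16 lost both calls and IFIT3 lost its MC26 call.

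All 8 epithelial markers checked, keratins 5, 8, 14 and 18 among them, were above background on all 18 arrays, as the epithelial label of the lines has it. Of 6 leukocyte genes, PTPRC and LYZ were above background on no array, and CD14, CD79A and LAPTM5 were above it on all 18. The summed intensity of those 6 genes was 323 to 714 on the M1B26 arrays, 232 to 779 on the MC26 arrays and 281 to 2649 on the MCF10A-CT arrays, with the highest sums, 1201 to 2649, on the sorted MCF10A-CT arrays. Most of that was LAPTM5, at 989.8 and 1718 on CD10+ and 892 and 2167 on CD10- MCF10A-CT arrays. None of 3 plasmacytoid dendritic cell genes, from the cell type best known for making interferon, was above background on every array, and IL3RA and LILRA4 were above it on none. The part of these markers in the results below was not tested.

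Among the sorted MCF10A-CT arrays, those numbered 2 stood apart in several of the genes. IFIT5, an RNA-binding effector, had 365 and 79.7 on the CD10+ arrays and 336 and 66.3 on the CD10- arrays numbered 1 and 2, while the unsorted MCF10A-CT arrays had 445 and 366 and no array of a treated line was under 313. IFIT2 had 42.7 and 13.1 on the CD10+ arrays and 33.2 and 8.73 on the CD10- arrays. IFIT3 had 148 and 63.3 and then 119 and 38.6. In both populations the array numbered 2 was the low one. Together with IFI44, 4 of the 37 genes tested were at least 2-fold higher on array 1 than on array 2 in both sorted MCF10A-CT populations, beside 3.48% of all genes. PARP9 and SAMD9 were lower on array 2 as well. Results against MCF10A-CT are therefore given with and without these 2 arrays.

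**Figure D1:**
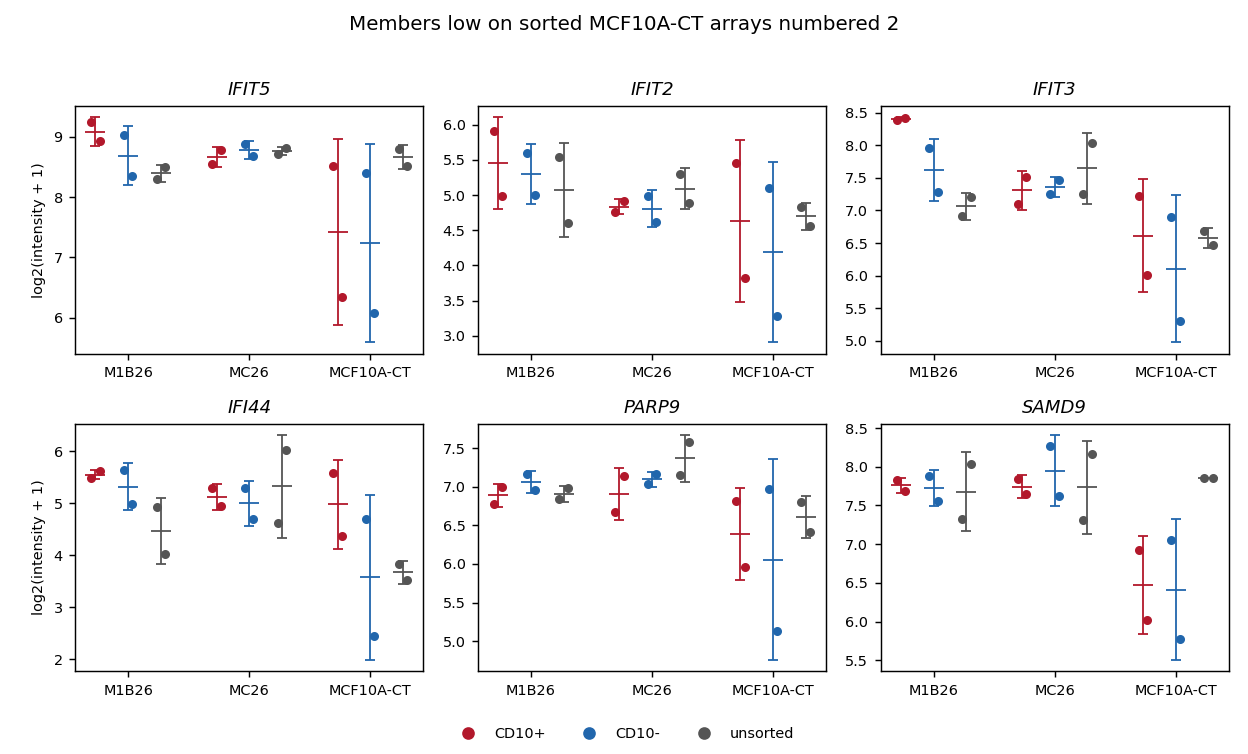
Points show log2(intensity + 1) of 6 genes on each of 18 arrays, by line along the x axis and by population in colour, with array 1 left of array 2, and the bars show the mean ± SD of 2 arrays. IFIT5 lies at 365 and 79.7 on the CD10+ arrays of MCF10A-CT, on the intensity scale, so that a single array numbered 2 lies far below its partner in each sorted control population.

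Levels differed widely. IFITM2 and IFITM3, membrane proteins that block virus entry, were the brightest, at 4045 to 8437 and 3445 to 6816, and IFI16, a DNA sensor, followed at 1705 to 3693. Brightness of different probe sets also reflects the probes themselves, so no order among genes is read from it. At the other end, 7 genes had a mean of log2 values at or under the background level (an intensity of 14.3) and were not tested: CMPK2, IFI27, MX1, MX2, OAS2, RSAD2 and XAF1. MX1 and RSAD2, both classic antiviral effectors that respond strongly to interferon, never passed 20.0 and 15.7. CMPK2, a mitochondrial nucleotide kinase next to RSAD2 on chromosome 2, had 63.7 and 56.0 on the CD10+ M1B26 arrays against 21.8 and 4.44 on the CD10- M1B26 arrays, and lay under background on 11 of the 18 arrays.

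The first question was whether the lines exposed to BMP2 and IL6 differ from the control line, with the 3 populations of a line averaged. In M1B26 minus MCF10A-CT, 13 of the 37 genes rose and 3 fell at a limma adjusted p under 0.05, beside 27.0% of all tested genes higher and 7.61% lower. In MC26 minus MCF10A-CT, 14 rose and 6 fell, beside 19.7% higher and 11.5% lower. The median log2 difference of the 37 genes was 0.36 in M1B26 and 0.35 in MC26, and that of all genes was 0.19 and 0.08. The genes did not move as one: the differences ran over -1.46 to 1.70 in M1B26 and over -1.45 to 1.68 in MC26. With the arrays quantile normalized, 9 genes rose and 4 fell in M1B26, beside 13.9% and 14.2% of all genes. With the arrays centred on the tested genes 8 rose and 5 fell in M1B26, beside 14.9% and 14.0%. The all-gene median of 0.19 became 0.00 and -0.01. In MC26 the centred arrays gave 12 higher and 8 lower, beside 18.4% and 15.5%. The 2 comparisons share the MCF10A-CT arrays.

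Without the 2 sorted MCF10A-CT arrays numbered 2, a comparison added after seeing the data, 9 genes were called in M1B26 (20.7% of all genes in either direction) and 9 in MC26 (16.6%), all of them among the genes called with every array. Both scalings ended the M1B26 calls of IFI16, IFI44, LGALS3BP and SAMD9 and called OAS3 lower (-0.35 and -0.36), and centring also ended that of USP18 (0.35) and called IRF7 lower (-0.52). Both called IFIH1 lower in MC26 (-0.51 and -0.48). The random block of line and array number described below for the CD10 comparison ended the calls of IFI44 in both lines, with an adjusted p of 0.0745 in M1B26 and 0.072 in MC26 (limma), and those of ISG20, IFITM2 and IRF9 in MC26 (0.0561, 0.0646 and 0.0906). In M1B26, HERC6, IFI35, IFI6, IFIT1, IFIT3, SLFN5, SP110, IFIH1 and OAS1 kept their call in every alternative that measured them. In MC26 HERC5, HERC6, IFI35, IFIT1, SLFN5, SP110, IFITM1, OAS1 and UBE2L6 did. IFI35, SP110 and IFITM1 were read by probe sets marked as able to match other transcripts, and were not measured once such sets were dropped. The leukocyte sums given above also set the sorted MCF10A-CT arrays apart.

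**Figure D2:**
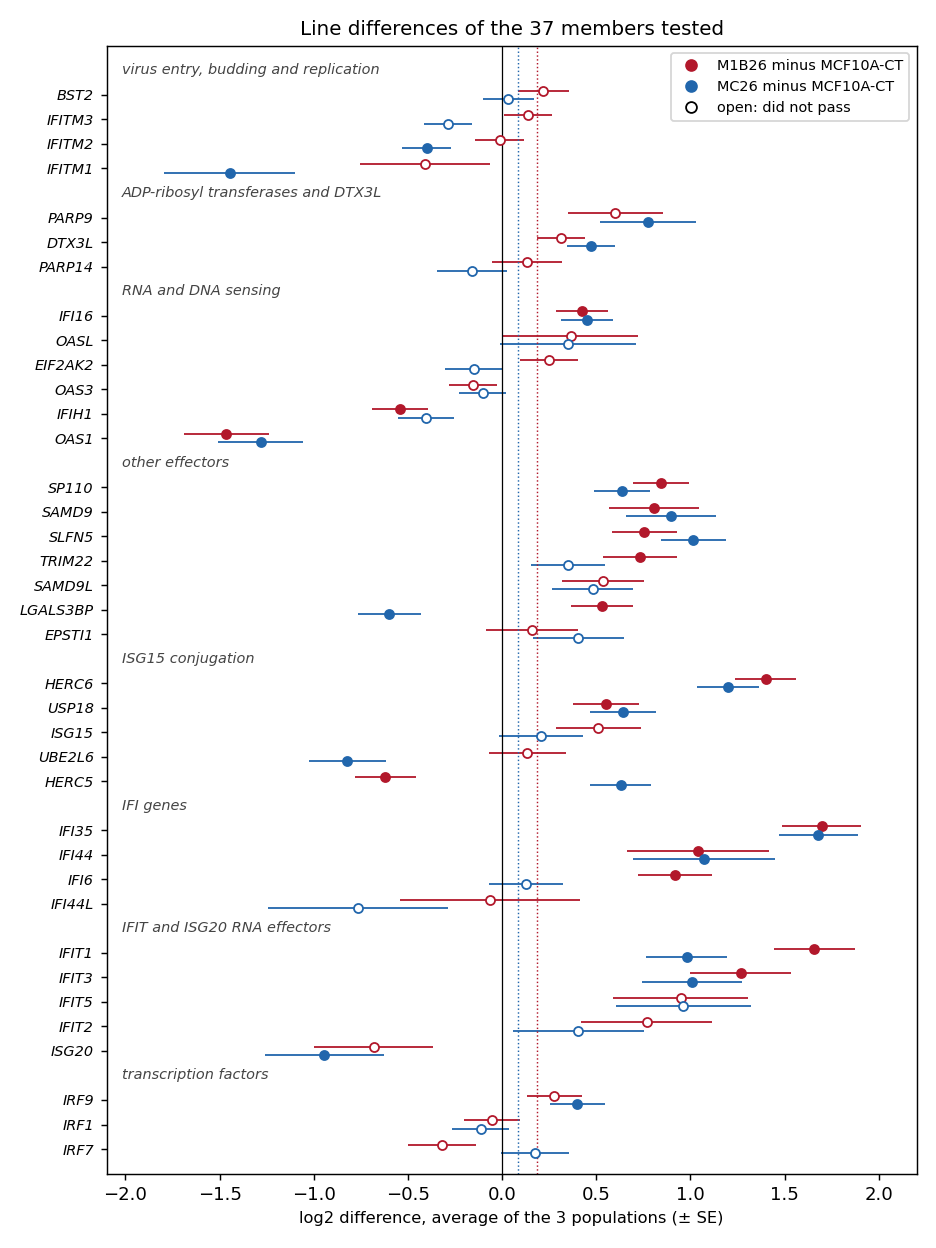
The x axis is the log2 difference from MCF10A-CT averaged over the 3 populations, with its SE, for M1B26 in red and MC26 in blue, and the 37 genes are grouped by role down the page. Filled points passed an adjusted p under 0.05, dotted lines mark the median of all genes (0.19 and 0.08), and IFI35, HERC6, IFIT1 and IFIT3 lie at 0.98 or above in both lines while OAS1 lies at -1.46 in M1B26 and -1.28 in MC26.

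Among the IFI genes, named only for induction by interferon, IFI35 showed the highest difference in both treated lines. It encodes a leucine zipper protein that pairs with NMI. Its intensity was 67.7, 90.8 and 112 on the M1B26 arrays, 73.1, 89.3 and 114 on the MC26 arrays and 12.9, 26.9 and 56.6 on the MCF10A-CT arrays (lowest, median and highest of 6). Both treated lines lay above every MCF10A-CT array. The log2 difference was 1.70 ± 0.21, adjusted p = 5.94e-05 in M1B26, and 1.68 ± 0.21, adjusted p = 0.000101 in MC26 (limma). IFI44 rose by a like amount, 1.04 ± 0.38, adjusted p = 0.0444 in M1B26 and 1.07 ± 0.38, adjusted p = 0.0422 in MC26, but lost both calls without the 2 low control arrays, at 0.46 and 0.50. IFI6, a small protein of internal membranes, rose in M1B26 (0.92 ± 0.20, adjusted p = 0.00292) and was 0.13 ± 0.20 in MC26. IFI44L passed in neither line (-0.06 ± 0.48 and -0.77 ± 0.48), but these averages join opposite differences. In M1B26 they were 0.13 among CD10+ and -1.63 among CD10- cells, against 1.30 among unsorted cells. In MC26 they were -1.97 and -1.63, against 1.30. The MC26 gap between sorted and unsorted arrays, -3.10, was called with the random block described below and not in the main fit.

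The IFIT proteins bind viral RNA that lacks the host's cap marks and stop its translation. IFIT1 had 30.0, 44.4 and 63.9 on the M1B26 arrays, 22.6, 27.9 and 32.9 on the MC26 arrays and 7.21, 13.0 and 26.8 on the MCF10A-CT arrays (lowest, median and highest of 6). Every M1B26 array lay above every MCF10A-CT array, and the MC26 range overlapped that of the unsorted controls. IFIT1 lay under background on 3 arrays, all sorted MCF10A-CT, at 7.21, 8.73 and 10.1. The log2 difference was 1.66 ± 0.21, adjusted p = 9.06e-05 in M1B26 and 0.98 ± 0.21, adjusted p = 0.00375 in MC26 (limma). Over the alternatives it was as low as 1.01 in M1B26 and 0.53 in MC26. In the main fit the MC26 difference was 1.69 among CD10+ and 1.24 among CD10- cells, against 0.001 among unsorted cells. That gap was not called in the main fit. IFIT3, which steadies IFIT1 on RNA, had 119.7, 201 and 341 on the M1B26 arrays, 136, 164 and 260.3 on the MC26 arrays and 38.6, 94.6 and 148 on the MCF10A-CT arrays (lowest, median and highest of 6). The ranges overlapped in both comparisons. The difference was 1.27 ± 0.27, adjusted p = 0.00264 in M1B26 and 1.01 ± 0.27, adjusted p = 0.0109 in MC26, and the MC26 call was lost, at 0.54 and adjusted p = 0.0708, without the low control arrays (limma). A dimmer probe set of IFIT3 differed by only 0.21 and 0.32. IFIT5 and IFIT2 did not pass, at 0.95 and 0.77 in M1B26 and 0.96 and 0.40 in MC26. ISG20, an exonuclease that degrades single-stranded RNA, was -0.68 in M1B26 without passing and fell in MC26 (-0.94 ± 0.32, adjusted p = 0.0335, limma). That call was lost without the 2 sorted MCF10A-CT arrays numbered 2, or without any 1 of several others. On those 2 arrays ISG20 was high and not low, at 171 and 160 against 112 and 122 on the arrays numbered 1.

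In the ISG15 system, HERC6 and HERC5 are ligases of the same family that lie side by side on chromosome 4, and in human cells HERC5 is the main ligase that joins ISG15 to proteins. HERC6 had 104, 126 and 163 on the M1B26 arrays, 86.8, 117 and 154 on the MC26 arrays and 35.1, 44.9 and 70.7 on the MCF10A-CT arrays (lowest, median and highest of 6). Both treated lines stood clear of the control, with differences of 1.40 ± 0.16, adjusted p = 3.87e-05 in M1B26 and 1.20 ± 0.16, adjusted p = 0.000196 in MC26. A probe set of HERC6 under background gave -1.41 and -0.52. HERC5 had 26.5, 32.3 and 40.2 on the M1B26 arrays, 64.7, 78.5 and 93.6 on the MC26 arrays and 41.7, 50.6 and 60.4 on the MCF10A-CT arrays (lowest, median and highest of 6). The 3 lines did not overlap at all: M1B26 lay lowest and MC26 highest. HERC5 thus fell in M1B26 (-0.62 ± 0.16, adjusted p = 0.00942) and rose in MC26 (0.63 ± 0.16, adjusted p = 0.00979). The M1B26 call was lost without the 2 sorted MCF10A-CT arrays numbered 2, at -0.54. HERC5 was not low on those arrays, at 55.5 and 53.6 against 47.6 and 44.5 on the arrays numbered 1.

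The other members of the system overlapped between the lines. ISG15 itself had 69.2, 106 and 227 on the M1B26 arrays, 68.2, 93.8 and 142 on the MC26 arrays and 57.1, 84.2 and 117 on the MCF10A-CT arrays (lowest, median and highest of 6). All 3 ranges overlapped and neither difference passed (0.51 ± 0.22, adjusted p = 0.0885 in M1B26, 0.21 ± 0.22, adjusted p = 0.516 in MC26). USP18, the protease that removes ISG15 and also damps the interferon receptor, had 40.7, 49.6 and 86.7 on the M1B26 arrays, 29.8, 67.0 and 82.6 on the MC26 arrays and 31.2, 37.7 and 52.2 on the MCF10A-CT arrays (lowest, median and highest of 6). It rose in M1B26 (0.55 ± 0.18, adjusted p = 0.0249, limma) and in MC26 (0.64 ± 0.18, adjusted p = 0.0134), with overlapping ranges. Both calls were lost without the low control arrays. The USP18 difference in MC26 was 1.17 among CD10+ and 0.94 among CD10- cells, against -0.19 among unsorted cells. In M1B26 it was 0.35 and 1.23, against 0.07. UBE2L6, the conjugating enzyme, had 149, 287 and 517 on the M1B26 arrays, 98.7, 165 and 215 on the MC26 arrays and 106, 378 and 419.8 on the MCF10A-CT arrays (lowest, median and highest of 6). It fell in MC26 (-0.82 ± 0.20, adjusted p = 0.00767) and in M1B26 the difference was 0.13 ± 0.20. The MC26 difference was -1.23 among CD10+ and -1.26 among CD10- cells, against 0.03 among unsorted cells (adjusted p = 0.0921 for sorted against unsorted, limma).

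**Figure D3:**
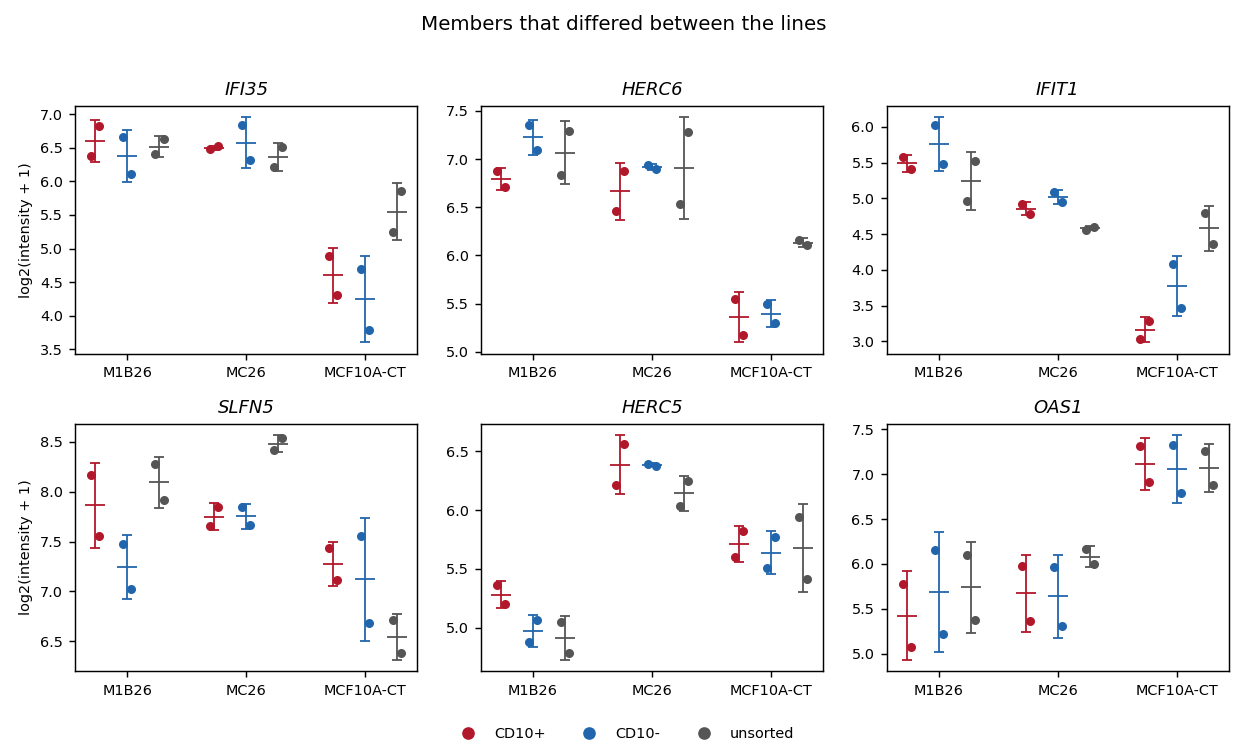
Points show log2(intensity + 1) on each of 18 arrays for 6 genes, by line along the x axis and by population in colour, with the mean ± SD of 2 arrays. IFI35 and HERC6 sit higher in both treated lines, HERC5 sits lowest in M1B26 (26.5 to 40.2 in intensity) and highest in MC26 (64.7 to 93.6), and OAS1 is highest in MCF10A-CT.

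Among the sensors, OAS1 went the other way. It makes the 2-5A messenger that switches on RNase L when double-stranded RNA is present. OAS1 had 32.7, 47.1 and 70.5 on the M1B26 arrays, 38.7, 61.8 and 70.6 on the MC26 arrays and 109, 136 and 159 on the MCF10A-CT arrays (lowest, median and highest of 6). Every array of both treated lines lay below every control array. The difference was -1.46 ± 0.23, adjusted p = 0.000375 in M1B26 and -1.28 ± 0.23, adjusted p = 0.00102 in MC26, and its second probe set gave -1.55 and -0.91. Its neighbours on chromosome 12 did not follow: OAS3 was -0.16 and -0.10 without passing, with a dimmer second probe set at 0.75 and 1.20, and OAS2 was too dim. IFIH1 (MDA5), which detects long double-stranded RNA, fell in M1B26 (-0.54 ± 0.15, adjusted p = 0.0121) and was -0.40 ± 0.15, adjusted p = 0.0508 in MC26, but a dimmer probe set of the gene ran the opposite way, at 0.66 and 0.89, so its direction is not settled. IFI16 rose modestly in both, 0.42 ± 0.14 and 0.45 ± 0.14, and lost both calls without the low control arrays, at 0.23 and 0.26. Its M1B26 difference was 0.16 with quantile normalization and 0.23 with centred arrays, and the call ended on leaving out 6 of the 12 arrays one at a time, at 0.31 to 0.54 over all 12. EIF2AK2 (the kinase PKR) and OASL passed in neither.

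Of the other effectors, SP110, a nuclear body protein, had 223, 309 and 344 on the M1B26 arrays, 185, 278 and 298 on the MC26 arrays and 139.8, 162 and 207 on the MCF10A-CT arrays (lowest, median and highest of 6). M1B26 stood clear of the control and MC26 overlapped it, with differences of 0.84 ± 0.15, adjusted p = 0.000923 in M1B26 and 0.64 ± 0.15, adjusted p = 0.00566 in MC26. SLFN5, a member of the Schlafen family, had 129, 214 and 309 on the M1B26 arrays, 201, 229 and 372 on the MC26 arrays and 82.3, 121 and 188 on the MCF10A-CT arrays (lowest, median and highest of 6). MC26 stood clear of the control and M1B26 overlapped it, with differences of 0.76 ± 0.17, adjusted p = 0.00434 in M1B26 and 1.01 ± 0.17, adjusted p = 0.00076 in MC26, and all 6 of its probe sets were higher in both lines. SAMD9 rose in both (0.81 ± 0.24 and 0.90 ± 0.24) and TRIM22 in M1B26 (0.73 ± 0.20), calls that ended without the low control arrays. The SAMD9 difference in M1B26 was 1.28 among CD10+ and 1.31 among CD10- cells, against -0.17 among unsorted cells. In MC26 it was 1.27 and 1.54, against -0.11. EPSTI1 and SAMD9L passed in neither line. LGALS3BP, a secreted glycoprotein, rose in M1B26 (0.53 ± 0.17, adjusted p = 0.0222) and fell in MC26 (-0.60 ± 0.17, adjusted p = 0.0137). Both calls ended without the 2 sorted MCF10A-CT arrays numbered 2, though the differences stayed at 0.53 and -0.60. The M1B26 difference was 0.27 with quantile normalization and 0.33 with centred arrays.

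Of the genes acting on virus entry and release, none passed in M1B26. In MC26 IFITM1 fell (-1.45 ± 0.35, adjusted p = 0.00627). Its differences were -2.05 among CD10+ and -2.16 among CD10- cells, against -0.13 among unsorted cells (adjusted p = 0.121 for sorted against unsorted, limma). In MC26 too IFITM2 fell slightly (-0.40 ± 0.13, adjusted p = 0.0307, limma), a call that several alternatives ended. Its difference was -0.68 among CD10+ and -0.70 among CD10- cells, against 0.18 among unsorted cells. The IFITM probe sets are of the kind that can bind related transcripts, so the 3 are not independent readings. BST2 (tetherin), which holds budding virus on the cell, was 0.22 and 0.03. PARP9 and DTX3L, with their shared response element, rose in MC26 (0.77 ± 0.25 and 0.47 ± 0.13) and did not pass in M1B26 (0.60 ± 0.25 and 0.31 ± 0.13), and both MC26 calls ended without the low control arrays, at 0.33 and 0.34. PARP14 passed in neither.

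Of the 3 transcription factors tested, which drive the other genes, 1 was called, in MC26. IRF9, the DNA-binding part of that complex, had 74.9, 88.5 and 120.1 on the M1B26 arrays, 71.6, 99.6 and 121 on the MC26 arrays and 56.6, 75.7 and 92.8 on the MCF10A-CT arrays (lowest, median and highest of 6). The ranges overlapped, with a difference of 0.28 ± 0.15 in M1B26 and 0.40 ± 0.15, adjusted p = 0.0488 in MC26 (limma), a call that most alternatives ended. In M1B26 the IRF9 difference was -0.15 among CD10+ and 0.11 among CD10- cells, against 0.87 among unsorted cells. In MC26 it was 0.02 and 0.21, against 0.98. That gap was not called in the main fit. Centring called it in both lines, and quantile normalization and the random block called it in M1B26. IRF1 had 90.8, 118 and 156 on the M1B26 arrays, 92.9, 109 and 143 on the MC26 arrays and 81.4, 128 and 179 on the MCF10A-CT arrays (lowest, median and highest of 6). IRF7, which amplifies interferon genes, had 18.8, 41.1 and 52.2 on the M1B26 arrays, 32.9, 59.4 and 67.6 on the MC26 arrays and 33.2, 45.6 and 69.1 on the MCF10A-CT arrays (lowest, median and highest of 6). Neither IRF1 nor IRF7 differed past the threshold in either line.

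Set directly against each other, M1B26 and MC26 differed in 4 of the 37 genes: 3 were higher in M1B26, beside 6.56% of all genes, and 1 was lower, beside 1.53%. HERC5 was the lower one (-1.25 ± 0.16, adjusted p = 0.000294), with the M1B26 and MC26 arrays apart as given above. LGALS3BP had 528, 1555 and 2337 on the M1B26 arrays against 312, 629 and 844 on the MC26 arrays, and was higher in M1B26 (1.13 ± 0.17, adjusted p = 0.0008). UBE2L6 was higher in M1B26 too (0.96 ± 0.20, adjusted p = 0.00916), and so was IFI6 (0.79 ± 0.20, adjusted p = 0.0206), though IFI6 lost its call with the arrays quantile normalized or centred, and without any 1 of 5 arrays, at 0.63 to 0.79. The ranges of these 3 genes overlapped between the lines.

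Among unsorted arrays alone, with 2 against 2, SLFN5 was the only one of the 37 genes called in either treated line, beside 0.674% of all genes in M1B26 and 0.320% in MC26. It had 309 and 240.3 in M1B26, 341 and 372 in MC26 and 104 and 82.3 in MCF10A-CT. Both treated lines lay above both control arrays. The difference was 1.55 ± 0.30, adjusted p = 0.0221 in M1B26 and 1.94 ± 0.30, adjusted p = 0.00609 in MC26. The M1B26 call was lost on leaving out any 1 of the 4 arrays, at 1.37 to 1.73, and the MC26 call without the unsorted MCF10A-CT array numbered 2, at 1.77. At an unadjusted p under 0.05 (limma) there were 11 of the 37 genes in each treated line. Of all 12171 genes, 879 were in M1B26 and 972 in MC26. The median difference of the 37 genes was 0.415 in M1B26 and 0.115 in MC26, and that of all genes 0.008 and 0.024. No gene of the 37 was called between unsorted M1B26 and MC26, beside 0.0986% of all genes. There 4 had an unadjusted p under 0.05, beside 4.54% of all genes at that p.

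The sort itself was visible in MME, the gene of CD10, at 1269 and 1021 on CD10+ against 56.4 and 15.9 on CD10- arrays of M1B26. MME was dimmer elsewhere, at 69.8 and 90.7 against 27.8 and 6.39 in MC26 and at 48.3 and 65.0 against 9.73 and 11.3 in MCF10A-CT, with the CD10+ arrays higher in each line. Between CD10+ and CD10- cells of MC26 and of MCF10A-CT none of the 37 genes was called, and 0% of all genes were; at an unadjusted p under 0.05 there were 0 in MC26, beside 0.822% of all genes, and 4 in MCF10A-CT, beside 1.36%. In M1B26 1 gene was called, beside 6.50% of all genes. IFI6 had 211 and 241 in CD10+ M1B26 cells against 90.2 and 88.1 in CD10- M1B26 cells. The CD10+ arrays lay above these and above the other 14 arrays, whose highest value was 93.3. The difference was 1.33 ± 0.34, adjusted p = 0.0277, and it was lost, at 1.24 to 1.43, on leaving out any 1 of the 4 arrays.

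Because the sorted arrays of a line deviated together by number, the comparison was also made with line and number as a random block. Then 5 genes passed in M1B26, beside 9.28% of all genes: IFI6, ISG15, UBE2L6 and IFI44L were higher in CD10+ cells and IFIH1 was lower. ISG15 had 227 and 205 in CD10+ M1B26 cells against 124 and 69.2 in CD10- M1B26 cells, and UBE2L6 had 517 and 472 against 237 and 219. Neither pair of groups overlapped, and without the block the differences were 1.21 ± 0.39, adjusted p = 0.078 and 1.11 ± 0.35, adjusted p = 0.0743. With it the differences stayed the same, with adjusted p = 0.0443 and 0.041 (limma). IFI44L, which varied most, had 269 and 108 on the CD10+ arrays of M1B26 against 71.5 and 12.6 on the CD10- arrays of that line (adjusted p = 0.0394 with the block, limma), and again the groups did not overlap. A fixed block on the sorted arrays alone, added after seeing the data, called 10 of the 37, beside 21.1% of all genes. That fit had 3 residual degrees of freedom and infinite prior ones. The spread was thus taken from the trend over genes and not from each gene's own arrays.

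CD10+ M1B26 cells also differed in cell type markers. Of the 8 epithelial genes, 6 were lower in CD10+ than in CD10- M1B26 cells without overlap, LAMB3 overlapped, and KRT8 was higher, at 1635 and 1944 on CD10+ arrays against 959 and 896 on CD10- arrays. EPCAM, an epithelial adhesion protein, had 111 and 190.5 on CD10+ arrays against 2173 and 2857 on CD10- arrays. CDH1 (E-cadherin) had 39.6 and 54.2 against 481 and 718, and LUM, a matrix proteoglycan of fibroblasts, had 517 and 593 against 45.7 and 15.4. The summed intensity of the 8 epithelial genes was 15209.7 to 15580.1 in CD10+ and 26471 to 30806 in CD10- M1B26 cells. That of 4 fibroblast genes was 669 to 778 in CD10+ and 131 to 153 in CD10- M1B26 cells, most of it LUM in CD10+ cells, with COL3A1 above background on none of the 18 arrays and COL1A1 at 119.5 and 182 on CD10+ against 98.1 and 113 on CD10- arrays. The part of these markers in the differences of IFI6, ISG15, UBE2L6 and IFI44L was not tested. In bulk arrays fewer cells of a type and less RNA per cell cannot be told apart.

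**Figure D4:**
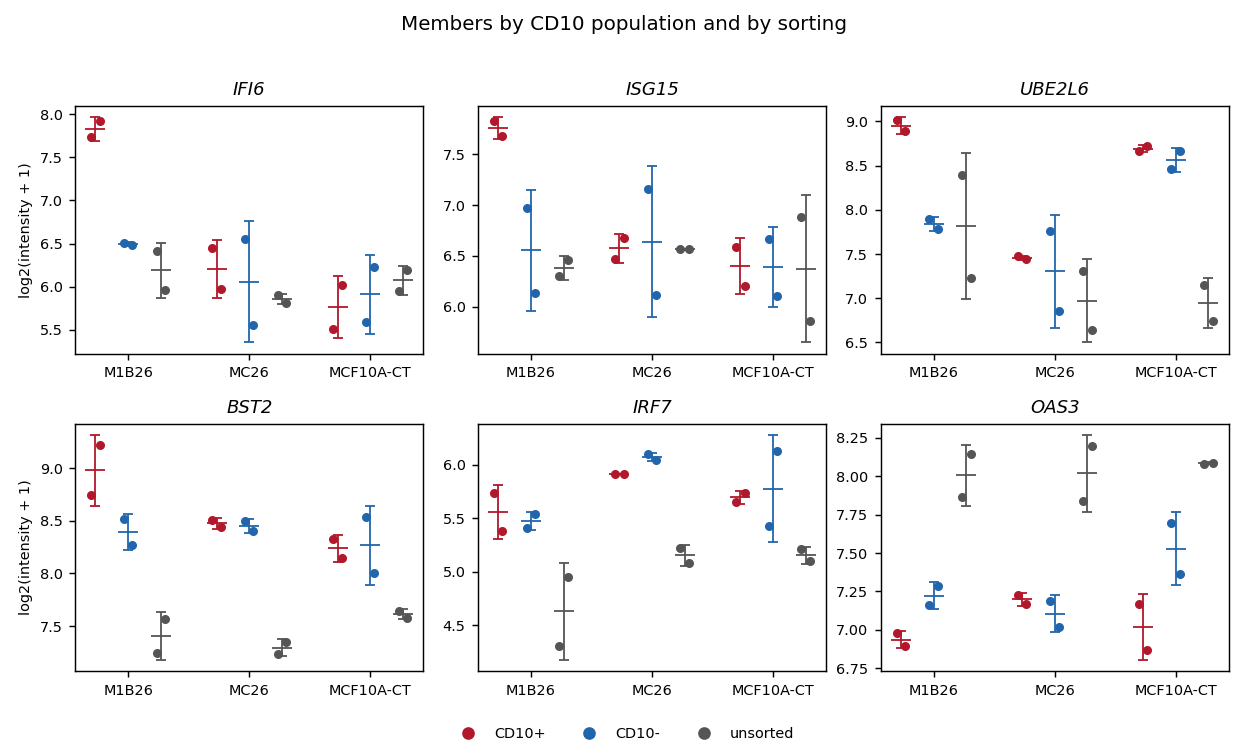
Points show log2(intensity + 1) on each of 18 arrays for 6 genes, by line along the x axis and by population in colour, with the mean ± SD of 2 arrays. IFI6 and ISG15 are highest in CD10+ M1B26 cells, and BST2 and IRF7 are higher while OAS3 is lower on the sorted (red and blue) than on the unsorted (grey) arrays.

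Sorted and unsorted cells were compared next. Averaged over the lines, sorted minus unsorted arrays differed in 6 of the 37 genes, beside 15.2% of all genes. BST2 had 255 to 594 on the 12 sorted arrays against 150.0 to 199 on the 6 unsorted arrays, a difference of 1.03 ± 0.12, adjusted p = 6.79e-05. IRF7 had 40.7 to 69.1 against 18.8 to 36.3 (0.77 ± 0.16, adjusted p = 0.00507). OAS3 had 116 to 206 against 228 to 292 and was lower (-0.87 ± 0.11, adjusted p = 0.000146). The sorted and unsorted arrays of these 3 genes did not overlap. LGALS3BP (1.15 ± 0.14, adjusted p = 0.000142), UBE2L6 (0.89 ± 0.18, adjusted p = 0.00431) and IRF1 (0.48 ± 0.13, adjusted p = 0.0216) were higher with overlap, and IRF1 lost its call, at 0.42 to 0.49, on leaving out any 1 of 4 unsorted arrays, the first of M1B26 and the second of each line. The actin control's 3′ to 5′ signal ratio, a sign of RNA length, was 1.11 to 1.34 on the sorted arrays and 1.56 to 2.14 on the unsorted arrays, and its part in these differences was not tested.

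The treated lines' differences from MCF10A-CT were in turn compared between sorted and unsorted arrays. In M1B26 4 genes gave a different answer, beside 11.9% of all genes, and in MC26 1 gene did, beside 6.07%. IFITM1 was the widest of them. It had 310.4 and 239.8 in CD10+, 296 and 508 in CD10- and 1054 and 517 in unsorted M1B26 cells, against 837 and 898 in CD10+, 936 and 738 in CD10- and 282 and 229.5 in unsorted MCF10A-CT cells. M1B26 was thus below the control among sorted arrays and above it among unsorted arrays. The difference between the 2 answers was -2.91 ± 0.73, adjusted p = 0.0212. SLFN5 was called in both lines (-1.19 and -1.38), IFIT1 (1.49) and IFIH1 (-1.07) in M1B26. No one of these 5 calls held in every alternative.

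Across the 18 arrays the genes were not one block. The 666 pairs of tested genes had correlations of -0.83 to 0.97 with a median of 0.13 (18 arrays that share lines and sorts, so these are descriptions). IFIT2, IFIT3 and IFI44 were most like the mean of the others (0.85, 0.84 and 0.80), and OAS1, IFIH1, ISG20, OAS3, HERC5, IFITM1 and IRF7 ran against it. The closest pairs were IFITM2 with IFITM3 (0.97), HERC6 with IFI35 (0.92) and IFIT5 with SAMD9 (0.89). Outside the set, the genes whose pattern over the 18 arrays was most like the mean of the 37 were ZNF614 (r = 0.92), OSMR (0.90), SPRED1 (0.90), PARP8 (0.89) and SLC39A8 (0.89), of the 10 taken by rank.

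The pathway around these genes was read from lists of ligands, receptors and kinases, sensors, regulators and further interferon-stimulated genes. The counts here and in the next paragraph stand beside the shares of all tested genes. Those were 27.0% higher and 7.61% lower in M1B26, and 19.7% higher and 11.5% lower in MC26. Of 20 interferon genes, 18 had a probe set and 1, IFNA17, was bright enough to test; it passed in neither line, and IFNB1 was at most 7.46 on any array. Of 9 receptor and kinase genes tested, 3 rose and 1 fell in M1B26 and none rose and 3 fell in MC26. TYK2 and JAK2, kinases of the receptors, rose in the M1B26 average (0.49 ± 0.13 and 0.91 ± 0.26). Unsorted TYK2 had 200 and 233 in M1B26 against 205 and 210 in MCF10A-CT. Unsorted JAK2 had 33.9 and 33.6 against 31.1 and 30.4. JAK2 had 64.4 and 73.2 in CD10+ and 30.0 and 16.9 in CD10- M1B26 cells, against 8.93 to 20.1 on sorted MCF10A-CT arrays. Sorted TYK2 had 173 to 232 in M1B26 against 103 to 164 in MCF10A-CT. IFNGR2, a chain of the interferon gamma receptor, fell in M1B26 (-0.46 ± 0.15) and in MC26 (-0.65 ± 0.15). Of 12 sensor genes tested, 4 rose and 1 fell in M1B26 and 2 rose and 1 fell in MC26. TLR4, a receptor for bacterial lipopolysaccharide, rose in M1B26 (1.24 ± 0.31, adjusted p = 0.00763, limma) and CGAS, a sensor of cytosolic DNA, in MC26 (0.68 ± 0.16).

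Of 8 regulators tested, 2 rose and 1 fell in M1B26 and 2 rose and 2 fell in MC26. SOCS3, a feedback inhibitor that IL6 signalling induces, had the widest difference, with mean intensities of 179 in M1B26, 165 in MC26 and 24.1 in MCF10A-CT. It rose by 2.84 ± 0.40 in M1B26 and 2.73 ± 0.40 in MC26 (adjusted p = 0.000188 and 0.000323, limma). These averages include the unsorted MCF10A-CT arrays, at 14.2 and 0.81, both under background. CD10+ M1B26 cells had 62.5 and 138 against 31.8 and 61.0 in CD10+ MCF10A-CT cells. The highest MCF10A-CT array had 104, so M1B26 overlapped the control. Of 31 further interferon-stimulated genes tested, 13 rose and 1 fell in M1B26 and 14 rose and 5 fell in MC26. PLSCR1, a membrane and nuclear antiviral protein, had means of 1039 in M1B26, 877 in MC26 and 522 in MCF10A-CT and rose in both (0.99 ± 0.10 and 0.75 ± 0.10). LAMP3 (2.03 ± 0.39 and 1.72 ± 0.39), GBP1, a guanylate-binding GTPase (1.24 ± 0.25 and 1.08 ± 0.25), and DDX60 (0.93 ± 0.19 and 1.00 ± 0.19) rose in both as well. These lists were not refitted without the 2 low control arrays.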

How the data were processed

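RNA of 18 cell samples was hybridised to Affymetrix HG-U133 Plus 2.0 arrays. The deposited values were intensities on a linear scale, with a value for each probe set on each array, and were made by the authors, per the submitters' processing notes, with Affymetrix Expression Console and MAS5 (versions not given in the sources used here). All columns shared a median of 16.7, while upper quartiles were 95.1 to 124, so the arrays were scaled but not quantile normalized; the study's methods name RMA, which these values are not. Of 54675 probe sets, 62 controls were left out and 41091 had 1 gene in the platform annotation.

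Intensities were taken as log2(intensity + 1), 1 probe set per gene (the highest mean), and genes were tested where that mean passed the median over every non-control probe set (intensity 14.3). One limma 3.58.1 fit (R 4.3.3; lmFit, eBayes with trend) of 9 group means had 9 residual and 6.28 prior degrees of freedom, and p-values were adjusted by Benjamini-Hochberg over 12171 genes in each of 12 contrasts, two-sided. Values after ± in differences are SEs; differences are in log2. The number of arrays limits precision, with a median SE of 0.17 for line averages and 0.30 between unsorted lines. On simulated data of the M1B26 comparison with 12171 genes, 74% of 2-fold and 96% of 4-fold changes were recovered. The simulation changed 200 genes and drew independent errors. In the data 4210 genes were called and same-numbered sorted arrays deviated together, so these rates may not hold there.

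Same-numbered CD10+ and CD10- arrays of a line deviated together (r = 0.18, 0.36 and 0.64 over the 3 lines), so their numbers were taken to pair them in the block fits alone. The labels name no shared culture. The main fit had no block and treated these arrays as independent. The random block of line and number (consensus correlation 0.131) also held the unsorted array of that number. Unsorted arrays deviated with the sorted arrays of their line at r = -0.015 to 0.122. Values per array are given by a rule: called genes whose arrays do not overlap, the largest first, and IRF9, IRF1, IRF7, ISG15 and USP18 whatever their values; those of IFIT3, IFIT5, IFIT2, UBE2L6, LGALS3BP, CMPK2, IFITM1 and IFI44L were added after their values were seen. The genes and lists were chosen with earlier results of these data known. Alternatives were the pseudocount, the filter, normalization, probe set choice, probe sets marked as cross-binding, the groups fitted, replicate blocks and leaving out each array.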

Additional observations from a re-analysis of the deposited data

Results flagged for a closer look

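In these results the difference of a treated line from MCF10A-CT, tested as an interaction, was not the same among sorted as among unsorted arrays. They are 4 of 37 genes in M1B26 and 1 of 37 in MC26, beside 11.9% and 6.07% of all genes, so such calls were no more frequent among these genes than among all. SLFN5 had a smaller difference among sorted arrays in both lines, at -1.19 in M1B26 (adjusted p = 0.0459, limma) and -1.38 in MC26 (adjusted p = 0.0382): its excess over MCF10A-CT in M1B26 and MC26 was 0.59 and 0.47 among CD10+ and 0.13 and 0.63 among CD10- cells, against 1.55 and 1.94 in unsorted cells. IFITM1 gave -2.91 in M1B26 (adjusted p = 0.0212), from differences of -1.66 in CD10+ and -1.10 in CD10- cells against 1.53 in unsorted cells. IFIT1 gave 1.49 (adjusted p = 0.0445), from 2.33 and 1.98 against 0.66, and IFIH1 gave -1.07 (adjusted p = 0.0401), from -1.38 and -0.42 against 0.17. The IFIT1 value leans on 3 sorted MCF10A-CT arrays under background, and was as low as 0.85 over the alternatives. The actin 3′ to 5′ ratio differs between the sorted and unsorted arrays as given above, and its part was not tested.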

How the results depend on the processing

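Over 66 results of single genes and 1428 alternative values, 1218 kept their direction and side of the threshold. Of the rest, 198 fell short of it, 4 passed it newly and 8 turned round, those 8 all near 0. The 66 were results called in the main fit, with IRF9, IRF1, IRF7, ISG15 and USP18 added in the line averages. The tally thus leaves out other results that only an alternative called, such as ISG15, UBE2L6, IFI44L and IFIH1 for CD10 in M1B26. IRF1 turned in M1B26 minus MC26 with quantile normalization (-0.0449), with centred arrays (-0.065) and without MC26 CD10- replicate 1 or M1B26 CD10- replicate 2 (-0.0198 to 0.1407 over all single arrays left out), and in M1B26 minus MCF10A-CT without MCF10A-CT unsorted replicate 1 (0.01), MCF10A-CT CD10+ replicate 1 (0.03) or M1B26 CD10- replicate 1 (0.03), over a range of -0.1373 to 0.0292. USP18 turned in M1B26 minus MC26 without MC26 unsorted replicate 1 (-0.2228 to 0.048 over all arrays).

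Counts of genes called moved by over 1.5 times as follows; the causes were not tested. In the 6-against-6 line averages, the counts fell in both lines without the 2 low control arrays, as given above. Dropping cross-binding probe sets gave 13 of 26 genes tested in MC26, with 2800 of all genes called. For CD10 in M1B26 the count was 0 with no filter, 2 with quantile normalization, 3 with the replicate block, 5 with the replicate block by line, 10 with the fixed replicate block on sorted arrays and 4 with only the groups compared. Over all genes, in the same order, 714, 931, 894, 1130, 2564 and 1389 were called, beside 791 in the main fit. Between unsorted lines it was 2 for M1B26 with the replicate block and 2 with only the groups compared, and 0 for MC26 with only the groups compared. Over all genes these fits called 99, 142 and 13, beside 82 for M1B26 and 39 for MC26 in the main fit. For sorted against unsorted M1B26 differences it was 1 with no filter, 7 with quantile normalization, 8 with the replicate block by line and 2 with only the groups compared. Over all genes, in the same order, 1098, 1413, 2158 and 1197 were called, beside 1444 in the main fit. The M1B26 count also fell without the low control arrays. For MC26 it was 0 with no filter, 4 with quantile normalization, 4 with centred arrays, 2 with the replicate block, 5 with the replicate block by line, 0 with the highest probe set per array and 0 with only the groups compared. Over all genes, in the same order, 512, 1164, 1060, 750, 1204, 740 and 436 were called, beside 739 in the main fit. The MC26 count rose without the low control arrays.

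Leaving out 1 array gave counts of 11 to 21 (M1B26) and 14 to 23 (MC26) for the averages, 3 to 7 for M1B26 minus MC26, 0 for unsorted M1B26, 0 to 1 for unsorted MC26 and for unsorted M1B26 minus MC26, 0 to 1 for CD10 in M1B26 and in MCF10A-CT, 0 for CD10 in MC26, 5 to 8 for sorting, and 0 to 9 (M1B26) and 0 to 5 (MC26) for sorted against unsorted differences. M1B26 minus MC26 had 7 without MC26 unsorted replicate 1. With 2 arrays a group, an arm left with 1 array is assumed to vary like the others.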
